A study of Sus scrofa domesticus with 36 samples.

Results

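The 12 libraries described here come from the longissimus dorsi, a fast back muscle, of 12 young crossbred pigs. They are the 6 libraries with the highest and the 6 with the lowest level of ATF3 RNA among 18 muscle libraries, out of 36 libraries of muscle and backfat in all. ATF3 is a transcription factor that cells make within minutes to hours of many kinds of stress. The level that chose the libraries was the ATF3 count of a library scaled to a common total of gene counts (counts per 1e6, CPM), so the ATF3 difference between the classes is fixed by the choice and is described without a test. NR4A3, an orphan nuclear receptor, was named beside ATF3 as a marker and is treated in the same way.

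All 18 pigs came from 1 farrowing group, had no treatment in the labels and, by the protocol, were of the cross Danbred 600 × Newsham NC32. The breed label carries another NC number in each of the 36 libraries, also between both libraries of a pig, and was not used. Of these, 9 had grown slowest (percentile 10 or below of growth rate) and 9 had grown at percentiles 60 to 70, and each slow pig was matched to a faster one whose litter had the same size and whose sow had the same parity. Neither the growth class, the pair nor the sex of a pig is in the labels used here, so the part of these in any difference was not tested. Before sampling, all pigs rode for about 45 min in transport and were killed by captive bolt and bleeding, so the low-ATF3 pigs carry that handling too and no unhandled pig was among the libraries. Sampling was 3 weeks after weaning by the series' design, while the labels give an age of 16 to 17 days and the stage weaning. Each pig is a separate animal and is named here as in the labels (Sample_186 and so on).

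ATF3 and NR4A3 belong to the immediate early genes, whose promoters are held ready and whose RNA appears without new protein synthesis after growth factors, calcium, cyclic AMP, heat or injury. FOS, JUNB, EGR1, MYC and the NR4A receptors are the best known of them. Their transcripts decay fast, and induced phosphatases such as DUSP1 and RNA decay factors of the ZFP36 family switch the signal off again. In skeletal muscle, contraction and adrenaline raise NR4A and ATF3 RNA, and ATF3 is also a target of ATF4, the transcription factor of the integrated stress response.

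Muscle libraries held between 4716541 and 6216459 gene counts, and the high and low classes overlapped in depth (medians 5217189 and 5260717). The share of counts outside annotated genes was 17.4% to 20.0% in the high class and 16.1% to 22.0% in the low class. Pig Sample_735 of the low class and pig Sample_572 of the middle 6 stood apart on the first principal component of the muscle libraries (scores -45.6 and -41.2, 23.6% of the variance), and pig Sample_231 of the high class on the second (-47.5, 15.7%). List medians were also taken without each of pigs Sample_186, Sample_735 and Sample_231, and differences of named genes without each of the 12 pigs, and the larger moves are given beside the results. These are whole pieces of tissue, in which fewer cells of a type and less RNA per cell cannot be told apart.

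ATF3 (ENSSSCG00000015595) reached 1476 CPM in pig Sample_186, more than in any other library. The other 5 high libraries held 356 CPM (pig Sample_835), 349 CPM (Sample_491), 293 CPM (Sample_231), 267 CPM (Sample_77) and 234 CPM (Sample_114). The low libraries held 124 CPM (Sample_911), 117 CPM (Sample_391), 99.6 CPM (Sample_731), 60.1 CPM (Sample_735), 52.2 CPM (Sample_889) and 48.8 CPM (Sample_242). Among the 6 libraries between them the level ran from 129 to 221 CPM, so the nearest library below the high class (Sample_176) was at 221 CPM against 234 inside it, and the nearest above the low class (Sample_991) at 129 CPM against 124 inside it. The ATF3 levels thus form a continuous series with 1 library far above it, and both class borders fall between close neighbours. With library sizes scaled by trimmed-mean factors, Sample_176 took the place of Sample_114 and Sample_572 that of Sample_911. The fitted log2 difference of ATF3 between the classes was 2.54, and 1.80 without pig Sample_186.

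NR4A3 (ENSSSCG00000005385) did not follow the same order. In the high class it reached 758 CPM (Sample_186), 138 CPM (Sample_77) and 112 CPM (Sample_114), but only 32.3 CPM (Sample_491), 17.5 CPM (Sample_835) and 6.20 CPM (Sample_231). The last of these is the lowest NR4A3 level of all 18 muscle libraries. The low class ran from 6.91 CPM (Sample_911) to 34.5 CPM (Sample_735) and the middle class from 14.2 to 41.6 CPM. High NR4A3 therefore went with high ATF3 in 3 of 6 high libraries, the NR4A3 ranges of the classes overlapped, and the libraries are called here by their ATF3 level alone.

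**Figure D1:**
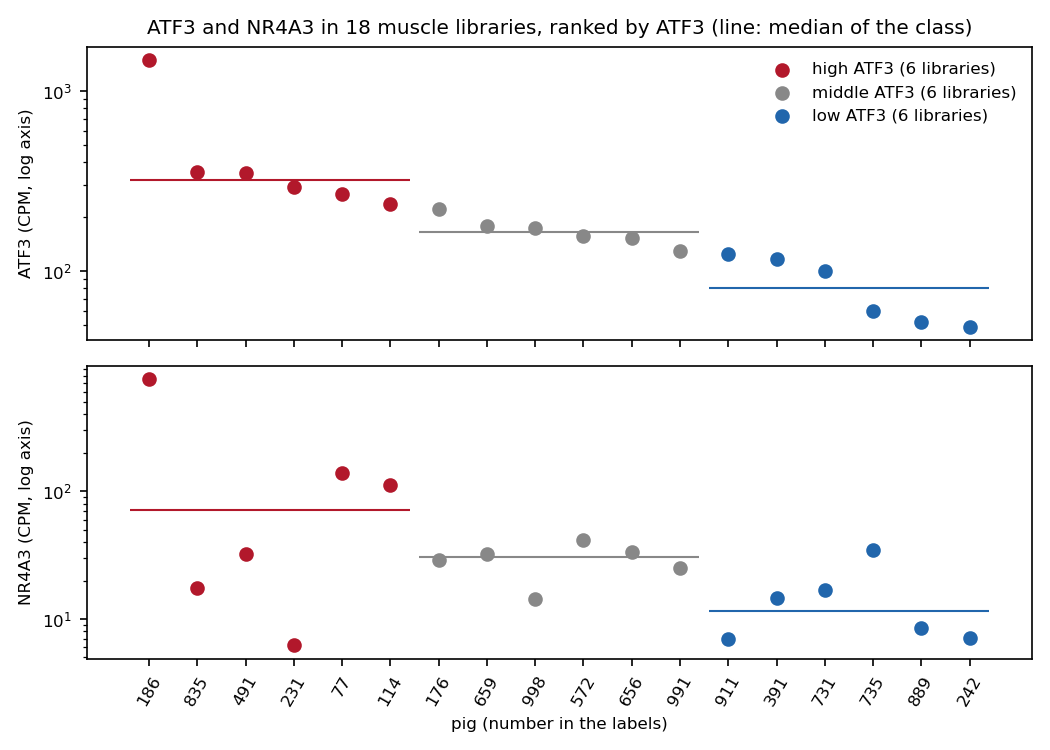
ATF3 (upper panel) and NR4A3 (lower panel) in CPM on log axes for each of the 18 muscle libraries, ordered by ATF3, with colours for the 3 classes and a line at each class median. ATF3 falls without a gap from 356 to 48.8 CPM below the library of pig Sample_186 at 1476 CPM, while 3 of the 6 high-ATF3 libraries have NR4A3 levels (6.20 to 32.3 CPM) under the 41.6 CPM reached among the other 12.

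Across all genes, none of 10550 tested passed an adjusted p of 0.05 between the 6 high and the 6 low libraries (edgeR's quasi-likelihood test with Benjamini-Hochberg adjustment, 0% called). DESeq2 called 0 of 17598 genes with any count, a base that includes any gene it left without an adjusted p. At an unadjusted p under 0.05, edgeR found 462 genes, 4.38% of those tested, split evenly with 2.19% of all genes in each direction, and DESeq2 found 500 (2.84%). For 24 genes (0.227%) the 6 high and 6 low libraries did not overlap. The fitted difference was above 0 for 48.9% of all genes and its median was -0.01. The gene groups below are read against these shares. They are descriptions of these 12 libraries, in which no gene tested met the adjusted threshold (ATF3 and NR4A3 were not tested).

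The immediate early transcription factors were the group with the largest median difference among the stress lists. Of 33 listed genes 17 carry a symbol in the table and 14 passed the low-count filter, ATF3 and NR4A3 included. Of the other 12, 11 had a fitted difference above 0 and 8 of them an unadjusted p under 0.05, where the share of all genes with that p in that direction was 2.19%. That count of 8 moved with the libraries and the scaling. It was 6 of 13 tested without pig Sample_186, 6 of 13 without pig Sample_735 and 4 of 13 without both. With library totals alone it was 6 of 12. The median log2 difference of the 12 genes was 0.80, 0.71 with no filter on low counts, 0.59 without pig Sample_186 and 0.57 without pig Sample_735. None of the 8 met the adjusted threshold (edgeR adjusted p from 0.883 to 0.970). The levels that follow are CPM with library sizes scaled by trimmed-mean factors.

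MAFF, a small Maf protein that lacks an activation domain, ranged from 9.39 to 172 scaled CPM in the high class (median 32.0) and from 5.18 to 16.4 in the low class (median 10.9). In 5 of 6 high libraries it lay above every low library, Sample_835 being the exception. Its log2 difference was 2.21 (SE 0.591), and 1.31 without pig Sample_186. CSRNP1, a nuclear protein induced by axin, ranged from 7.25 to 80.0 scaled CPM (median 12.6) against 5.23 to 8.09 (median 6.03). Again 5 of 6 high libraries exceeded all low ones, and the difference of 1.89 (SE 0.547) became 0.91 without pig Sample_186. The size of both differences thus moved by over 1.5 times with that library.

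The remaining members split the high class. FOS, a subunit of AP-1, was at 162 scaled CPM in pig Sample_77, 116 in Sample_186 and 46.5 in Sample_114, but between 10.5 and 14.2 in the other 3 high libraries, while the low libraries ran from 1.99 to 50.4 with Sample_735 at the top. NR4A2, a relative of NR4A3, was high in the same 3 pigs at 22.5 (Sample_186), 16.3 (Sample_114) and 11.7 scaled CPM (Sample_77). In Sample_835, Sample_491 and Sample_231 it was between 1.88 and 3.84, within the low range of 1.70 to 5.43. The log2 differences were 1.79 (SE 0.821) for FOS and 1.41 (SE 0.545) for NR4A2. So FOS, NR4A2 and NR4A3 were all at their 3 highest high-class levels in pigs Sample_186, Sample_77 and Sample_114, which hold ranks 1, 5 and 6 by ATF3.

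MYC, a driver of growth and ribosome synthesis, was more evenly spread over the high class, from 25.4 to 54.1 scaled CPM (median 36.4) against 14.3 to 30.0 (median 19.4). Its log2 difference of 0.90 (SE 0.231) was 0.92 without pig Sample_186. EGR1, a zinc finger factor that responds to serum and calcium, ranged from 12.1 to 47.8 (median 22.4) against 6.38 to 22.6 (median 12.3), with a difference of 0.93 (SE 0.362). KLF4 was at a median of 19.4 against 12.6 (difference 0.70, SE 0.238), and JUNB, an AP-1 subunit, at 18.7 against 11.0 (difference 0.59, SE 0.250). The ranges of all 4 genes overlapped between the classes. SRF, the factor that drives many immediate early promoters, had a difference of 0.14 (SE 0.229) at medians of 155 and 157 scaled CPM. NFIL3, a repressor with a bZIP domain, was the only one of the 12 below 0, at -0.20 (SE 0.265).

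**Figure D2:**
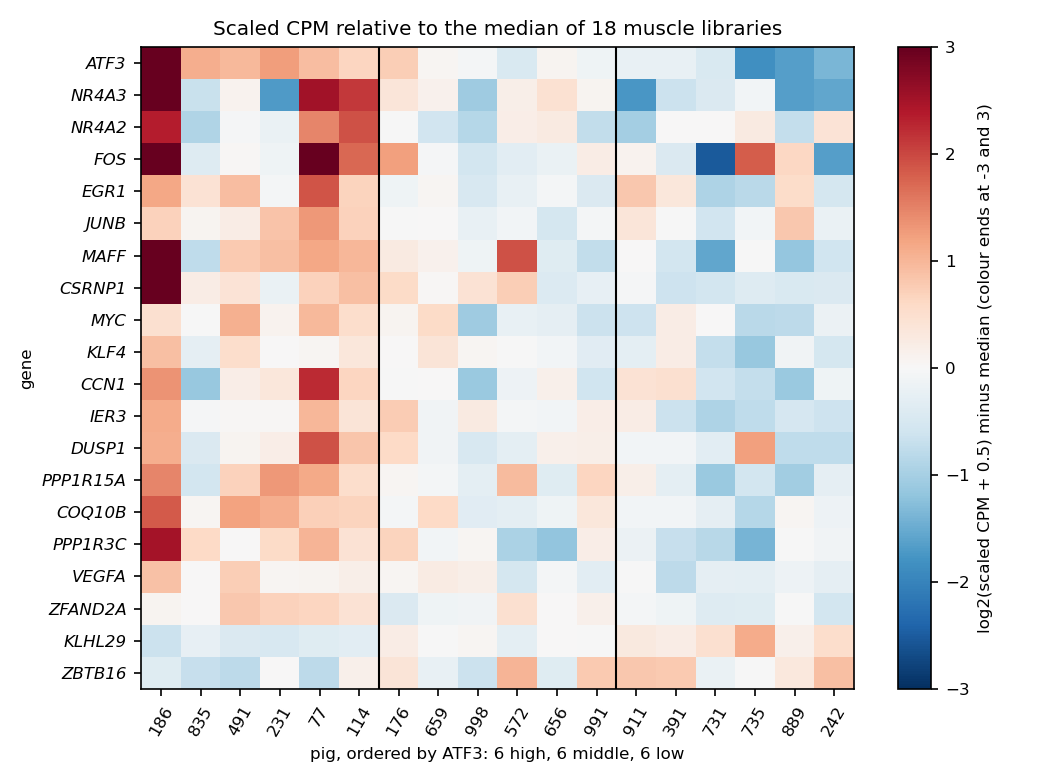
Scaled CPM of 20 genes (rows) in the 18 muscle libraries (columns, ordered by ATF3), as log2(scaled CPM + 0.5) minus the gene's median over the 18 libraries, with the colour scale ending at -3 and 3. Pigs Sample_186, Sample_77 and Sample_114 are the high-ATF3 libraries with high NR4A3, NR4A2 and FOS, while COQ10B and KLHL29 do not overlap between the 6 high and the 6 low libraries.

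Among the other immediate early genes, which code for secreted, signalling and enzyme proteins, 23 of 35 listed carry a symbol, 20 were tested, 19 had a difference above 0 and 4 an unadjusted p under 0.05. The median difference was 0.51, and without pig Sample_186 it was 0.47 with 2 genes at that p. IER3, a small protein that modulates survival signalling, ranged from 6.39 to 14.7 scaled CPM (median 7.76) against 3.19 to 7.67 (median 4.05), with a difference of 1.07 (SE 0.271, edgeR adjusted p 0.883). Of the low libraries only Sample_911, at 7.67, reached into the high range. CCN1, a matrix protein that responds to serum and stretch, reached 219 scaled CPM in pig Sample_77 and 117 in Sample_186, but its lowest high-class value, 20.5 in Sample_835, lay under every low library. Its difference was 1.13 (SE 0.473) and 0.64 without pig Sample_77. ODC1, the first enzyme of polyamine synthesis, had a difference of 0.61 (SE 0.279; 0.40 without pig Sample_231) and its highest levels in Sample_231 and Sample_491 (67.0 and 59.8 scaled CPM), pigs in which NR4A3 was low. UAP1, an enzyme of amino sugar synthesis, had a difference of 0.27 (SE 0.128).

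The most abundant other members did not reach an unadjusted p of 0.05. OTUD1, a deubiquitinase, was at 321, 280 and 181 scaled CPM in pigs Sample_77, Sample_186 and Sample_114, and from 22.7 to 79.3 in the other 3 high libraries. The low libraries held 5.96 to 122 scaled CPM, and the difference was 1.31 (SE 0.677). THBS1, a matrix glycoprotein released on injury, had a difference of 0.91 (SE 0.451), which became 0.49 without pig Sample_186. ARID5B, a chromatin regulator, had a difference of 0.66 (SE 0.360; 0.43 without pig Sample_186).

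The feedback genes, which end the response, gave a smaller median difference. Of 28 listed genes 14 carry a symbol and 10 were tested. ZFP36 itself was at 0 in every muscle library and is not among the 10. The median was 0.20, 0.02 with no filter on low counts, and 7 of 10 lay above 0, none with an unadjusted p under 0.05 in edgeR. DUSP1, a phosphatase of the MAP kinases, ranged from 39.6 to 201 scaled CPM in the high class (median 78.4) and from 31.2 to 127 in the low class (median 46.6). The 127 belonged to pig Sample_735, and the difference of 0.76 (SE 0.427) became 1.20 without that pig and 0.39 without pig Sample_77. Other abundant members had differences close to 0, with -0.02 for DUSP10, 0.22 for NFKBIA and 0.22 for ZFP36L1. DUSP4 stood at -0.39 (SE 0.264; -0.20 without pig Sample_242).

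ATF3 is a target of ATF4 in the integrated stress response, the brake on translation that follows amino acid lack or endoplasmic reticulum stress. Of 23 ATF4 targets tested, 14 had a difference above 0 and the median was 0.08. PPP1R15A, the phosphatase subunit that lifts the brake again, was the exception among them, from 22.7 to 92.6 scaled CPM (median 63.7) against 15.1 to 37.9 (median 24.8). In 5 of 6 high libraries it lay above every low library, and its difference was 1.36 (SE 0.310, edgeR adjusted p 0.883), 1.21 without pig Sample_186. SLC38A2, an amino acid transporter, had a difference of 0.48 (SE 0.209). The 4 most abundant members lay within 0.1 of 0, at 0.02 for AARS1, -0.08 for SARS1, -0.06 for SLC3A2 and -0.03 for VLDLR. The sign of the list's median depended on single libraries, since it was -0.09 without pig Sample_735 (8 of 23 above 0) and -0.20 without pig Sample_231 (6 of 23).

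Chaperone genes lay a little above the median of all genes, and more of them lay above 0 than the 48.9% of all genes. Of 16 genes of the endoplasmic reticulum chaperones and unfolded protein response, 14 lay above 0 with a median of 0.12. HSPA5, the main chaperone of that compartment, had medians of 133 and 128 scaled CPM and a difference of 0.30 (SE 0.271), and HSPA13, a microsomal chaperone, a difference of 0.55 (SE 0.188) with an unadjusted p under 0.05. Of 22 cytosolic and mitochondrial heat shock genes, 16 lay above 0 with a median of 0.13. Their 2 members with an unadjusted p under 0.05 were the co-chaperones DNAJA1 (0.56, SE 0.222) and DNAJB4 (0.49, SE 0.219), while HSP90AA1 stood at 0.07 (SE 0.177). Without pig Sample_231 these 2 were at 0.37 and 0.31, and no member of the list had that p. Across these and the ATF4 list, the 5 genes with an unadjusted p under 0.05 all had positive differences. They made up 8.7% of the ATF4 list, 6.25% of the endoplasmic reticulum list and 9.09% of the heat shock list. Of all genes tested, 2.19% had that p in that direction.

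Hypoxia-inducible genes had a median of 0.16 with 18 of 22 above 0. VEGFA, the growth factor of blood vessels, ranged from 31.4 to 57.9 scaled CPM in the high class (median 34.3) and from 18.1 to 31.3 in the low class (median 25.9). The classes did not overlap, though by a margin of less than 0.1 scaled CPM, and the difference was 0.65 (SE 0.184, edgeR adjusted p 0.955). EGLN3, an oxygen-sensing hydroxylase induced by hypoxia, had a difference of 0.60 (SE 0.226), with 5 of 6 high libraries above all low ones. VLDLR, EGLN1 and EPAS1, among the more abundant members, lay at -0.03, -0.07 and 0.02. P4HA1, also among these, lay above 0, from 0.12 to 0.34 over the fits without 1 library at a time.

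Genes induced by glucocorticoids showed differences of both signs. Of 13 tested, 6 lay above 0 and the median was -0.16. PER1, which is also a clock gene, ranged from 81.2 to 427 scaled CPM (median 277) against 95.2 to 236 (median 145), with a difference of 0.75 (SE 0.333). Its lowest value in the 12 libraries was that of pig Sample_231 in the high class. ZBTB16, a zinc finger gene strongly induced by glucocorticoids, went the other way, from 19.1 to 37.2 (median 23.2) against 28.9 to 62.9 (median 50.1). Its difference was -0.86 (SE 0.234, edgeR adjusted p 0.883), with 4 of 6 high libraries below every low one. SLC22A3, a transporter of organic cations, stood at -0.88 (SE 0.339; -0.58 without pig Sample_242). FKBP5, a chaperone of the receptor, had a difference of -0.58 (SE 0.381), which became -0.21 without pig Sample_735 and -0.90 without pig Sample_835. The list's median was -0.29 without pig Sample_186.

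The genes of FOXO signalling and muscle protein breakdown had a median of -0.07 with 5 of 20 above 0, and 1 library decided that count. FBXO32, the ubiquitin ligase atrogin-1, was at 182 scaled CPM in pig Sample_735 and from 3.17 to 6.24 in the other 5 low libraries, against 1.92 to 19.5 in the high class. Its difference of -2.14 (SE 1.11) turned to 0.75 without that pig, and 14 of 20 members then lay above 0 with a median of 0.15. Actin ACTA1 was also lowest of the low class in Sample_735, at 13865 scaled CPM against 73830 to 192690 in the other 5.

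**Figure D3:**
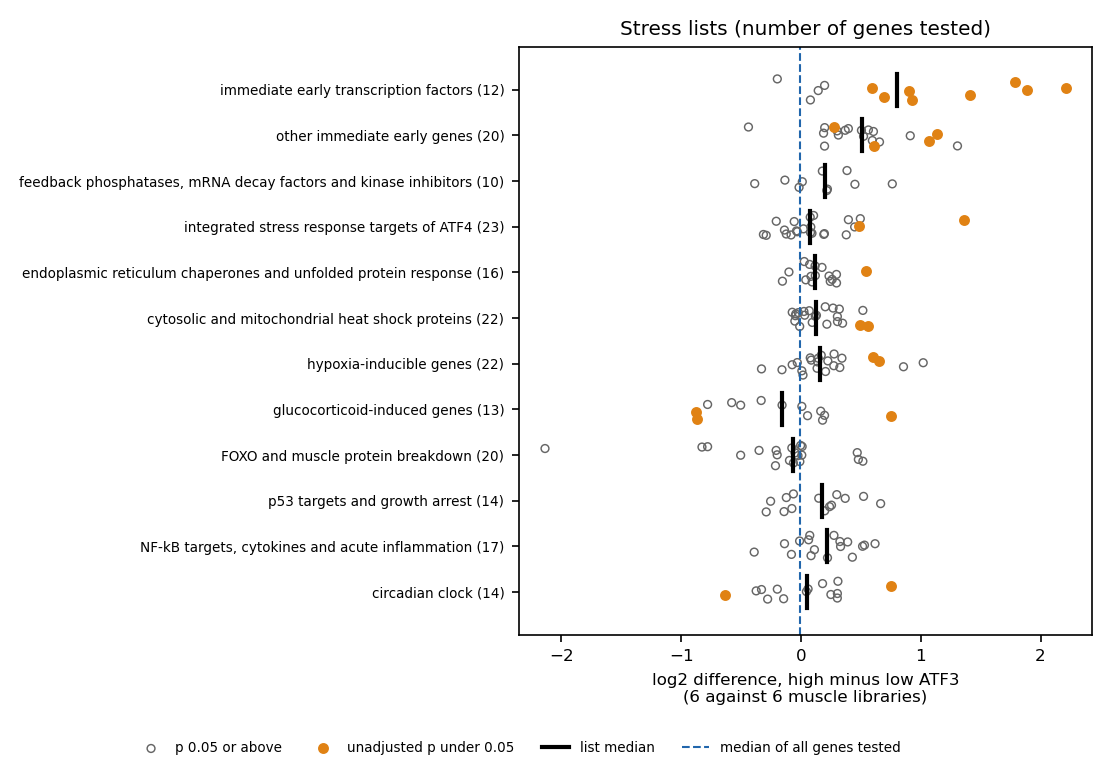
Fitted log2 difference between high-ATF3 and low-ATF3 muscle libraries (6 against 6) for each gene of 12 stress lists, with filled points for an unadjusted p under 0.05, a black bar at the list median and a dashed line at the median of all 10550 genes. The immediate early lists have medians of 0.80 and 0.51, while the 10 other medians lie between -0.16 and 0.22.

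The other stress lists had medians between 0.00 and 0.22, against -0.01 for all genes. NF-kB targets and cytokines had a median of 0.22 (13 of 17 above 0; 0.13 without pig Sample_231), p53 targets 0.17 (8 of 14; 0.06 without pig Sample_231), oxidative stress and metal response genes 0.02 (6 of 11), and contraction and cyclic AMP responsive genes 0.00 (13 of 25; -0.09 without pig Sample_186). In these 4 lists only UCP3, a mitochondrial uncoupling protein, had an unadjusted p under 0.05, at -0.56 (SE 0.241). The AP-1, ATF/CREB and C/EBP family, which holds the partners of ATF3, had a median of 0.03, with 8 of 16 genes above 0 and none at that p (-0.01 without pig Sample_231). Strain-responsive muscle genes had a median of 0.08 (8 of 14), which turned to -0.19 without pig Sample_231 (3 of 14) and -0.02 without pig Sample_735. Their cardiac troponin TNNT2 stood at -1.61 (SE 0.692), and at -0.42 without pig Sample_911. The 9 polyamine genes had a median of 0.14, and beside ODC1 the gene AZIN1, whose protein shields ODC1 from antizyme, had an unadjusted p under 0.05 (0.36, SE 0.154). That median was 0.07 without pig Sample_231 and 0.08 without pig Sample_735, and in the latter case no polyamine gene had that p. Clock genes had a median of 0.05 (8 of 14; -0.06 without pig Sample_186 and 0.25 without pig Sample_735), with CLOCK at -0.64 (SE 0.253) and PER1 at the other end.

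The 24 genes with the smallest p in each direction, 12 up and 12 down, were chosen by these same values and are a description. Their edgeR adjusted p ran from 0.770 to 0.970 and 9 of the 24 did not overlap between the classes. COQ10B, a lipid-binding protein needed for coenzyme Q function, led those above 0. It ranged from 7.14 to 25.9 scaled CPM (median 13.2) in the high class and from 3.51 to 7.07 (median 6.25) in the low class, with a difference of 1.31 (SE 0.269) that was 1.07 without pig Sample_186. PPP1R3C, a subunit that directs a phosphatase to glycogen, ranged from 25.0 to 143 (median 37.9) against 9.15 to 24.9 (median 18.7). Its difference was 1.61 (SE 0.409), and 1.04 without pig Sample_186, a move of over 1.5 times. ZFAND2A, an arsenite-inducible protein tied to the proteasome, ranged from 4.88 to 8.96 against 3.17 to 4.84, with a difference of 0.77 (SE 0.194).

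Further genes above 0 were KCNIP2, a subunit of potassium channels (0.88, SE 0.216), LYVE1, a hyaluronan receptor of lymphatic endothelium and some macrophages (1.21, SE 0.315) and the centrin CETN3 (0.61, SE 0.177). PPP1R15A, IER3, MYC, MAFF and VEGFA, described above, were also among these genes. For KCNIP2 5 of 6 high libraries exceeded every low one, and for LYVE1 4 of 6.

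KLHL29, a member of the Kelch-like family, led the genes below 0. Its high-class levels ran from 5.97 to 8.08 scaled CPM (median 7.21), its low-class levels from 10.8 to 21.2 (median 12.7) and the middle class from 7.74 to 11.4. The difference was -0.96 (SE 0.181), and it was -0.91 without pig Sample_186 and -0.78 without pig Sample_735, which held the 21.2. HIPK2, a nuclear kinase of stress signalling, ranged from 3.87 to 6.58 against 6.84 to 10.8 (difference -0.70, SE 0.175). SRCAP, a chromatin remodeller, ranged from 42.5 to 69.7 against 73.7 to 91.0 (difference -0.44, SE 0.132). The classes did not overlap in any of these 3 genes. The protein kinase PRKCA (-0.85), the microtubule protein MAP1A (-0.93), the transcription factor SIM1 (-1.18), the endosomal protein WDFY1 (-0.59), the remodeller CHD3 (-0.52), the ion exchanger SLC9A2 (-0.58), CCDC9B (-0.51) and TRAPPC9 (-0.59) followed, beside ZBTB16.

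The 6 middle libraries did not enter this fit. For all 24 of these genes their mean level lay between the high and the low mean, which held for 33.4% of all genes tested. Genes chosen for a wide gap leave more room for a mean between them, so the share is given without a test. In the lists above it held for 4 of the 12 immediate early transcription factors (33.3%), near the share of all genes. It held for 11 of the 20 other immediate early genes (55%) and for 0 of the 10 feedback genes.

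When genes were ranked by how closely their level followed ATF3 over all 18 muscle libraries, COQ10B (Spearman's rho 0.769) and PPP1R3C (0.765) stood nearest among 6059 genes with a symbol and at least 5 CPM. VEGFA (0.732), DNAJA1 (0.711), KBTBD8 (0.707), HNRNPH3 (0.692), IER3 (0.692), CETN3 (0.688) and COMMD3 (0.676) followed. These coefficients describe 18 libraries that also set the classes and carry no test. Without pig Sample_186 the value was 0.725 for COQ10B and 0.721 for PPP1R3C. Other immediate early genes ranked lower, with KLF4 at 29 (rho 0.614), MYC at 31 (0.612), CSRNP1 at 49 (0.583) and EGR1 at 55 (0.575). Further down were JUNB at 122 (0.515), MAFF at 148 (0.492) and CCN1 at 194 (0.465). The ATF4 target PPP1R15A was at 50 (0.581). NR4A3 was at rank 371 (0.381) and FOS at 858 (0.267).

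A fit with log2 ATF3 as a continuous level over the 18 libraries called 9 of 11570 genes besides ATF3 and NR4A3 (0.0778%). The genes with a symbol that rose were CSRNP1, by 0.73 per doubling of ATF3 (SE 0.0805, edgeR adjusted p 7.69e-05), MAFF (0.78), PPP1R3C (0.58), COQ10B (0.49) and the thiamine transporter SLC19A2 (0.44). KLHL29 fell by 0.33 on the log2 scale, and 3 genes with no symbol rose. None of the 9 calls held without pig Sample_186, where no gene was called and the edgeR adjusted p of these 9 lay between 0.294 and 0.722. That fit also covers a narrower range of ATF3, with 356 CPM (Sample_835) as its highest level. The slopes of these 9 genes kept their sign without pig Sample_186. They were 0.41 for CSRNP1 (0.73 with that pig), 0.45 for COQ10B (0.49) and -0.40 for KLHL29 (-0.33).

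Choosing the 6 highest and 6 lowest libraries by NR4A3 in place of ATF3 gave other classes and other gene groups. Of the 6 high-ATF3 libraries 3 were among the 6 highest by NR4A3 (Sample_186, Sample_77 and Sample_114), pig Sample_735 of the low-ATF3 class joined them, and Sample_231 of the high-ATF3 class fell among the 6 lowest. By that choice the median difference of the immediate early transcription factors was 0.53, of the other immediate early genes 0.12, of the feedback genes -0.14 and of the ATF4 targets -0.59. Glucocorticoid-induced genes had a median of 0.46 and protein breakdown genes of 0.64. PER1 was called (1.32, edgeR adjusted p 0.0344) with 3 genes that have no symbol, 4 of 10554 in all (0.0379%). Both choices share libraries, so no measure of their overlap in genes is given.

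The muscle identity of the libraries was plain in both classes. The summed level of 14 sarcomere and fast fibre genes was 139898 to 225525 scaled CPM in the high class and 59965 to 312474 in the low class, so the low range enclosed the high one. Of these 14 genes 3 lay above 0 (median -0.23), and TCAP, which caps titin at the Z disc, was the member with an unadjusted p under 0.05 (0.61, SE 0.269; 0.25 without pig Sample_231). All 5 slow fibre genes lay above 0 (median 0.42), and 4 of 5 did so without pig Sample_186 or without pig Sample_735 (median 0.28 in the latter case), with TNNC1, the slow troponin C, at a median of 3486 against 1985 scaled CPM (difference 0.83, SE 0.315). All 19 oxidative phosphorylation genes lay above 0 with a median of only 0.17 and none at an unadjusted p under 0.05, and 17 of 19 did so without pig Sample_735 (median 0.09) or without pig Sample_231 (0.10). Glycolysis and glycogen genes lay mostly below 0 (3 of 18 above, median -0.21; -0.34 without pig Sample_735). The phosphorylase kinase subunit PHKA1 was the 1 member with an unadjusted p under 0.05, named after its value was seen. Myogenic and denervation genes had a median of -0.29 (5 of 18 above 0), with the adhesion molecule NCAM1 at -0.54 (SE 0.210).

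Markers of other cell types overlapped between the classes in their summed levels. Macrophage markers summed to 58.3 to 167 scaled CPM in the high class (median 112) and 26.9 to 172 in the low class (median 53.7). Of 9 tested 8 lay above 0 (median 0.33), with the lysozyme gene LYZ at a median of 11.4 against 4.40 (difference 1.27, SE 0.532) and CD68 at 0.60 (SE 0.260). Lymphocyte markers summed to 17.7 to 75.7 against 10.6 to 89.3 scaled CPM, with all 5 tested above 0 (median 0.27; 0.16 without pig Sample_735). Endothelial markers summed to 356 to 533 against 295 to 512, with 10 of 13 above 0 (median 0.17; 0.11 without pig Sample_735 and 0.26 without pig Sample_231) and only LYVE1 at an unadjusted p under 0.05. The part of these cells in the immediate early levels was not tested.

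Granulocyte markers summed to 6.40 to 13.7 against 8.25 to 15.0 scaled CPM, and MMP8 and HDC were at 0 in every muscle library. Medians were -0.12 for smooth muscle and pericyte markers, 0.02 for fibroblast markers and 0.08 for nerve markers. Without pig Sample_735 they were -0.25, -0.13 and 0.04, and without pig Sample_186 the nerve median was 0.24. Of 8 adipocyte markers 2 lay above 0 (median -0.43; -0.15 without pig Sample_735), with CFD at 0.60 (SE 0.251) and FASN, fatty acid synthase, at -0.70 (SE 0.285; -0.41 without pig Sample_889). Haemoglobin HBB, a sign of blood in the sample, was at a median of 14.3 in the high class and 45.3 in the low class, with overlapping ranges of 8.96 to 99.6 and 5.19 to 61.4.

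The backfat of the same 12 pigs shows whether the classes hold in another tissue of the animal, from libraries the choice did not use. ATF3 in backfat ran from 28.2 to 61.2 scaled CPM in the high-ATF3 pigs (median 31.8) and from 16.2 to 78.3 in the low-ATF3 pigs (median 36.1). Pig Sample_186, with the most ATF3 in muscle, had 38.1 scaled CPM in backfat. The difference in mean log2(scaled CPM + 0.5) was -0.02 (exact two-sided permutation test, n = 6 against 6, p = 0.972, smallest possible p 0.00216). Over all 18 pigs the muscle and backfat levels of ATF3 had a Pearson r of 0.145 (permutation p 0.559) and a Spearman rho of 0.0671 (p 0.792). Without the 2 pigs farthest from the median (Sample_186 and Sample_735) r was 0.155. Neither the difference nor the relation met the threshold in these samples.

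NR4A3 in backfat ran from 9.29 to 32.2 scaled CPM in the high class (median 22.8) and from 11.8 to 18.4 in the low class (median 14.2). Its difference of 0.51 did not meet the threshold (exact two-sided permutation test, n = 6 against 6, p = 0.104). The highest 3 backfat levels of the high class were again in pigs Sample_186, Sample_114 and Sample_77, at 32.2, 31.3 and 26.6.

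No gene of 12837 in backfat passed the adjusted threshold between these pigs in edgeR (0% called), with 530 at an unadjusted p under 0.05 (4.13%), of which 406 (3.16%) lay below 0. DESeq2 called 170 of 19580 genes with any count (0.868%), 168 of them (0.858% of all) lower in the high-ATF3 pigs. That base includes any gene DESeq2 left without an adjusted p. Of 19 contractile genes that had an adjusted p, 18 were among the 168 called lower. The contractile share thus has a narrower base than the share of all genes. ACTA1 in backfat ran from 109 to 2186 scaled CPM in the high class and from 436 to 28245 in the low class, a difference of -4.05 (SE 1.11, edgeR adjusted p 0.298). RNA of contractile genes in backfat thus differed between the classes by DESeq2 and did not pass the threshold of edgeR. The source of that RNA, and its part in the other backfat values, was not tested.

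The immediate early transcription factors had a median difference of 0.03 in backfat (8 of 14 above 0) and the other immediate early genes of -0.04 (11 of 23). In edgeR, 2 of the 14 had an unadjusted p under 0.05, both above 0, and 0 of the 23 had that p. Of all 12837 genes tested in backfat, 124 had that p above 0 and 406 below 0. In backfat FOS ran from 34.7 to 322 scaled CPM in the high-ATF3 pigs and from 108 to 299 in the low-ATF3 pigs (difference -0.47, SE 0.436). Pigs Sample_77 and Sample_114, which beside Sample_186 had the most muscle FOS of the high class, held the lowest backfat levels of the 12 pigs (70.7 and 34.7). PPP1R15A had medians of 50.9 and 51.7 in backfat and a difference of 0.04 (SE 0.146). When the difference in muscle was tested against that in backfat, no gene of 13403 was called (edgeR, 750 or 5.60% at an unadjusted p under 0.05), nor were any of 14386 with the pig as a block (1044 or 7.26%). The fit without the pig as a block took muscle and backfat of a pig as independent. In that edgeR fit PPP1R15A had an adjusted p of 0.105, for a muscle-minus-backfat difference of 1.33 (SE 0.356), and MAFF 0.202 (2.19, SE 0.651). So no gene's difference was shown to be particular to muscle.

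**Figure D4:**
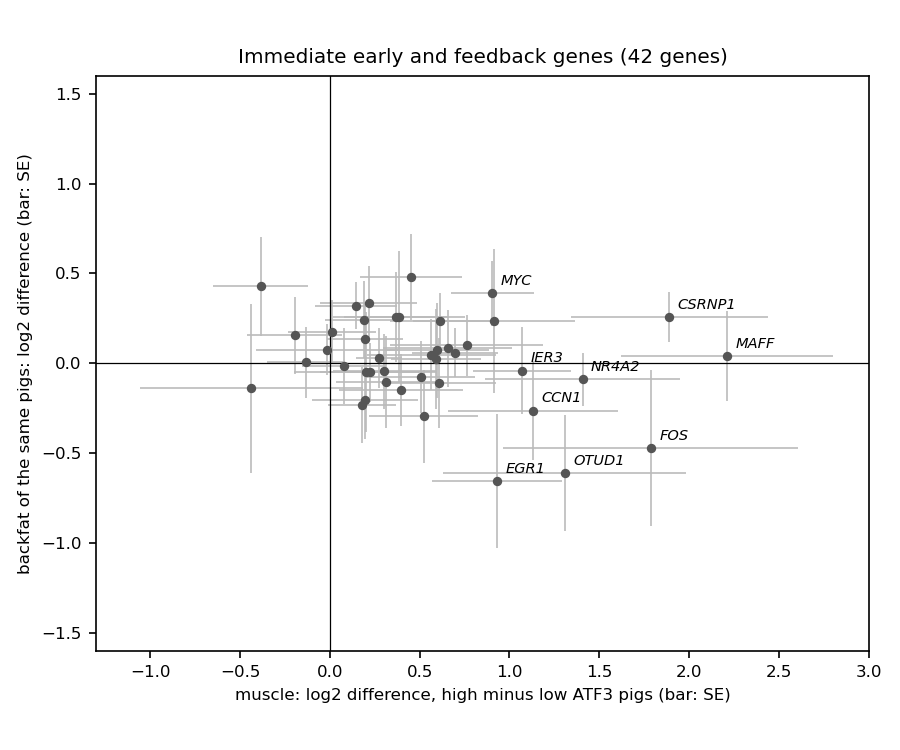
Fitted log2 difference between high-ATF3 and low-ATF3 pigs in muscle (x axis) and in backfat of the same 12 pigs (y axis) for 42 immediate early and feedback genes, with bars of 1 SE. In muscle the labelled genes lie between 0.90 and 2.21, while in backfat MAFF lies at 0.04, CSRNP1 at 0.26 and EGR1 at -0.66.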

How the data were processed

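RNA of longissimus muscle and backfat of 18 pigs was read as 100 nt pairs from TruSeq libraries, per the labels' protocols. The authors deposited 1 table of expected counts per gene for 25322 genes, not normalised and in steps of 0.5 (35.1% of values not whole). Per the submitters' processing notes, GSNAP and HTSeq were used (no versions). Not given in the sources used here are the genome build, annotation and strand setting, so overlapping or antisense genes and near-identical copies could not be told apart. Counts were rounded to whole numbers for all fits, and 5 lines that name no gene were left out of library sizes. Of the gene IDs, 11804 have a symbol. Columns left unused numbered 0.

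Libraries were ranked by ATF3 count over library total. Genes were tested with edgeR 4.0.16 in R 4.3.3 (quasi-likelihood test, robust, trimmed-mean factors, default low-count filter, Benjamini-Hochberg, threshold 0.05), with DESeq2 1.42.0 as an alternative. The test scripts were tested on simulated counts. Permutation tests used Python 3.11.15, SciPy 1.17.1, NumPy 2.4.6 and pandas 2.3.3, with 100000 draws for correlations. Figures used Matplotlib 3.10.9. Scaled CPM is the CPM value after trimmed-mean scaling over the 18 libraries of a tissue, and a log2 level of it carries a pseudocount of 0.5. Libraries with 1 pig number come from 1 animal. The deviations of a pig's libraries from their class means correlated at 0.242 on average (0.0995 to 0.388) between tissues.

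The libraries, the gene lists and the tests were chosen with earlier results of these data known. Named genes are ATF3 and NR4A3, members of the immediate early and feedback lists with the highest level or an unadjusted p under 0.05, up to 4 abundant members of each other list and those at that p, 12 genes in each direction with the smallest p, at least 5 CPM and a symbol, and 10 genes that follow ATF3. Of all these, 1 gene is not reported here. The rule asked for genes past the adjusted threshold, and since none passed, the members at an unadjusted p under 0.05 were named after their values were seen. Promoter sequences were not used here.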

Additional observations from a re-analysis of the deposited data

Results flagged for a closer look

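In 20 genes, each class of 6 libraries in each tissue was searched for a library far from the other 5 on the scale of log2(scaled CPM + 0.5), leaving out ATF3 and NR4A3 in muscle, which chose or marked the classes. The measure was the gap to its nearest neighbour as a share of the range of the class against Dixon's 95% critical value. Of 76 such groups 8 passed. The groups share libraries, 4 of the 8 came from pig Sample_735 in muscle, and some of the genes were named after their values were seen. The count therefore cannot be compared with a share given by chance. In the high class of the muscle, pig Sample_186 stood apart for CSRNP1 (gap 0.674 of the range, at 80.0 scaled CPM). In the low class of the muscle, pig Sample_735 stood apart in 4 genes, with FBXO32 at 182 scaled CPM (0.844), DUSP1 at 127 (0.655), COQ10B at 3.51 (0.655) and ACTA1 at 13865 (0.635). Pig Sample_911 stood apart for IER3 in the low class (0.626, at 7.67 scaled CPM). In backfat, pig Sample_491 was far below the other high-class pigs for VEGFA (0.681, at 45.3 scaled CPM) and pig Sample_231 far above them for ACTA1 (0.676, at 2186 scaled CPM). Without pig Sample_735 the difference between the muscle classes was 1.20 for COQ10B (1.31 with it) and -0.49 for ACTA1 (-0.25 with it).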

How the results depend on the processing

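In muscle the count of called genes stayed at 0 under DESeq2, other factors, library totals, no filter, 4 or 9 libraries a class, ranking by scaled ATF3, a term for counts in no gene, and leaving out each library (0 to 0). It was 9 with ATF3 as a continuous level and 4 when ranked by NR4A3. In backfat DESeq2 called 170 genes with all pigs of both classes. There edgeR called 0, and it also called 0 in every fit without 1 pig. DESeq2 was not run without a pig, so whether its 170 calls rest on 1 pig was not tested. With the pig as replicate block the count for the difference between tissues was 0, as without it, and the block changed no call. The cause of these differences was not tested. With library totals the ATF3 difference in backfat was 0.0743 (exact permutation p 0.924).

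Leaving out 1 library gave list medians of 0.57 to 0.93 for immediate early transcription factors, 0.34 to 0.65 for other immediate early genes and 0.11 to 0.24 for feedback genes. Ranked by NR4A3 the last 2 were 0.12 and -0.14. Over 47 named genes and 1128 settings, 1093 kept sign and side of the threshold, 30 turned sign and 5 passed the threshold (MAFF, COQ10B, PPP1R3C, KLHL29 and CSRNP1 with the continuous level). Ranked by NR4A3, these turned: SRF -0.0302, ODC1 -0.60, SPRY2 -0.29, DNAJA1 -0.18, KBTBD8 -0.23, SLC9A2 0.20 and CHD3 0.0591. With 4 libraries a class NFIL3 was 0.0932, ZFP36L1 -0.35, DUSP10 0.67 and NFKBIA -0.26. With ranking by scaled ATF3 NFIL3 was 0.0588, ARID5B -0.0522, DUSP10 0.39 and NFKBIA -0.14, and with 9 a class ARID5B was -0.0128. DUSP10 was 0.011 with totals, 0.0018 with no filter, 0.0089 with the term for counts in no gene, and 0.0478 on the continuous level (0.0915 without pig Sample_186, where NFKBIA was -0.0036). Without 1 library at a time DUSP10 ran from -0.315 to 0.192, NFIL3 from -0.325 to 0.0304 (without Sample_889) and ZFP36L1 from -0.0611 (without Sample_77) to 0.422. Counts per gene limit precision where levels are under 10 scaled CPM, as for IER3, ZFAND2A and KLHL29. The alternatives that left out Sample_186 with Sample_735, or Sample_186 from the continuous fit, were chosen after seeing the data.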

Other observations

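NR4A3 in muscle was set against NR4A3 in backfat of the same 18 pigs after the values had been seen, as 1 of 2 genes and 4 coefficients so compared. Pearson's r was 0.643 (permutation p 0.00293, Benjamini-Hochberg adjusted 0.0117) and Spearman's rho 0.616 (p 0.00747, adjusted 0.0149). Without the 2 pigs farthest from the median in muscle, Sample_186 and Sample_77, r was 0.451 (permutation p 0.0809) and rho 0.456 (p 0.0775), so the relation rested in part on those pigs. The ATF3 relation of the same pigs was r 0.145.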
